A study of Mus musculus with 31 samples.

Results

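Messenger RNA of 10 genes of endothelial cells was followed through the reprogramming of mouse fibroblasts: Cd34, Eng, Esm1, Mmrn2, Kdr, Pecam1, Cdh5, Tie1, Tek and Emcn, out of 29267 genes in the deposited tables. The 10 were listed by symbol and chosen by their levels in these same libraries, some having been seen to stand high where the Tet1CD virus met vitamin C. Values of libraries with both are therefore given as a description with no p, and where a count of genes past the threshold is printed for them, nothing is read from it. Of the comparisons that leave those libraries out, 12 were tested, and so were 5 differences of effects.

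The cells were of the mouse strain 129/OG2. Cells under reprogramming, at passage 0, were driven by OKSM, the factors Oct4, Klf4, Sox2 and Myc, and so were all 24 libraries called reprogramming libraries here, controls included. They carried a Flag virus, taken as the control, or a Tet1CD virus, were kept with vitamin C (Vc), DKG or DMSO alone, taken here as the solvent control, and were collected at day 3 or day 8. These 12 combinations had 2 libraries each, numbered 0824 and 0826. Beside them stood untreated fibroblasts (MEF, passage 2, 2 libraries with the same numbers) and embryonic stem cells (ESC, 2 libraries titled 0822, passage 17, and 0819, passage 19). The deposited tables of the ESC carry these numbers the other way round from the titles. The titles are used here, and which ESC values belong to which passage is uncertain. MEF kept for 3 days with DMSO, Vc or DKG had 1 library each and are given as values only. The last of them names DKG in its treatment field but another compound, 2DG, in its title. The labels give neither doses, nor what DKG stands for, nor the content of the Tet1CD construct. Apart from ESC, whose libraries differ in passage, they also leave unsaid whether both libraries of a group were grown separately. For those other groups the spread behind the p-values may be only technical. It is assumed that the cells under reprogramming started as MEF of the measured kind.

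Endothelial cells line the blood vessels. They read growth factors through receptor kinases in their membrane: Kdr (VEGFR2) binds VEGF, and Tek (TIE2) binds the angiopoietins, with Tie1 as its partner. Eng (endoglin) is a co-receptor for ligands of the BMP and TGF-beta family. Cdh5 (VE-cadherin) and Pecam1 (CD31) hold neighbouring cells together. Emcn (endomucin) and Cd34 are sialomucins of the cell surface, and Mmrn2 (multimerin 2) and Esm1 (endocan) are secreted, the latter by sprouting tip cells. Several are not restricted to endothelium: Cd34 marks blood progenitors and some fibroblasts, and Pecam1 is made by mouse embryonic stem cells.

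Total counts lay between 3953297 and 6818060 per library. At these depths 0 counts of a gene allow up to 3 counts, or 0.44 to 0.759 CPM (counts scaled to a common library total) depending on the library, a limit that covers counting error only. Tet1, the gene of the virus, lay between 4.37 and 32.5 CPM in the 12 Flag libraries. In the 12 Tet1CD libraries it lay between 183 and 687 CPM, so no library went against its virus label. In Tet1CD cells of day 3 its mean was 451 ± 30.9 CPM (SD, n = 2) with Vc, 617 ± 78.2 with DMSO and 622 ± 91.9 with DKG. At day 8 these means were 217 ± 47.9, 465 ± 196 and 461 ± 229 CPM. The part of this difference in the values with Vc was not tested. The ESC libraries stood apart from each other. A sum over 10 fibroblast markers reached 9834 CPM in 0822 and 78.4 CPM in 0819, against 30220 and 32467 CPM in untreated MEF, so the ESC values of the members are also given without either library. Of the Tet1CD Vc libraries, 0824 of day 8 carried 1253 CPM of 11 macrophage markers, led by Lyz2 at 285 CPM. The other 3 carried 76.3 and 35.9 CPM at day 3 and 16.9 CPM at day 8, and the 12 Flag libraries 7.26 to 14 CPM.

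Of the 10 genes, 7 passed the low-count filter (edgeR's filterByExpr) and entered the tests, while Cdh5, Tie1 and Emcn did not. Cdh5, the cadherin of endothelial junctions, never exceeded 3 counts and was at 0 in 14 of 31 libraries. Tie1 never exceeded 6 counts and was at 0 in all 5 MEF libraries. Emcn was at 0 in 18 libraries, 17 of them reprogramming libraries, and reached its highest count, 13, in untreated MEF. Summed over these 3 genes, the 4 Tet1CD Vc libraries held 0 to 0.713 CPM, the 24 reprogramming libraries 0 to 1.66 CPM and untreated MEF 1.93 and 2.84 CPM. These 3 were thus at or near 0 in the Tet1CD Vc cells, while Tek (64.7 to 82.9 CPM), Eng (65.4 to 90 CPM) and Cd34 (103 to 197 CPM) of the same list were not. The list is divided in these libraries, and the 10 genes are called below by their names and not as a sign of endothelial cells. In bulk RNA, fewer cells of a type and less RNA per cell cannot be told apart.

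Upstream sequences are shown for 4 genes with unlike behaviour: Esm1 and Eng, highest among reprogramming cells where Tet1CD met Vc; Tek, high in all reprogramming cells whatever the virus; and Kdr, high in MEF. Since Tet1 acts on methylated cytosine in CG pairs, each CG is in capitals. The sequences are the 250 bases before the gene's start, 5′ to 3′ on the gene's strand, from RefSeq (GRCm38.p6): chr13:113209409-113209658 on the plus strand for Esm1, chr2:32646345-32646594 on the plus strand for Eng, chr4:94739039-94739288 on the plus strand for Tek and chr5:75978456-75978705 on the minus strand for Kdr.
Esm1: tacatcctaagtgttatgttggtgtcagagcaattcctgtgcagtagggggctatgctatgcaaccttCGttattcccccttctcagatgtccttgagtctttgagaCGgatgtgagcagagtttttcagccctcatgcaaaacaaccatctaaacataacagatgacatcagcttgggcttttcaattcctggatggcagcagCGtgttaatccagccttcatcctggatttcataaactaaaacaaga
Eng: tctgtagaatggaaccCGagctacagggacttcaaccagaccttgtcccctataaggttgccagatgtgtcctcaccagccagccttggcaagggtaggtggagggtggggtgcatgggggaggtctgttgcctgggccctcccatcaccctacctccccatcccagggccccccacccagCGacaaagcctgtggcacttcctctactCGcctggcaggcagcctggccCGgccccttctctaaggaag
Tek: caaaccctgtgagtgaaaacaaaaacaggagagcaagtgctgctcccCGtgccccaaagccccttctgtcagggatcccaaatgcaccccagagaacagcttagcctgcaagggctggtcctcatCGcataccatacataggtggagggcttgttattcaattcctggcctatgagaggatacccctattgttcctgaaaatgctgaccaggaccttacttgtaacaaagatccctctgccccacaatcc
Kdr: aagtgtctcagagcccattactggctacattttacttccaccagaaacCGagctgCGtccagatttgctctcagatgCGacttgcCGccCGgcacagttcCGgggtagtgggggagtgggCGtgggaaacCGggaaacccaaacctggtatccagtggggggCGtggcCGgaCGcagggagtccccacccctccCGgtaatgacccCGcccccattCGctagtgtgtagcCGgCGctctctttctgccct

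Over the window of 300 bases that runs on to 50 bases past the start, Esm1 held 5 CG, Eng 6, Tek 3 and Kdr 19, and Cd34 and Tie1 7 each and Emcn 2. The median over 32544 such windows of the genome was 7, so Esm1, Eng and Tek lay below it and Kdr well above. At least as many CG as in Kdr were found in 28.3% of windows, and at most as many as in Tek in 31%. The letters AGGAAG, a core bound by ETS factors, occurred on either strand 2 times each in the windows of Eng, Tie1 and Emcn, 1 time in that of Cd34, and in none of Esm1, Tek and Kdr. Of all windows 35.1% held them. The longer CCGGAAGT, which does not contain AGGAAG, was in none of the 7 windows and in 3.92% of all. Such matches describe the letters in these windows and nothing more.

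**Figure D1:**
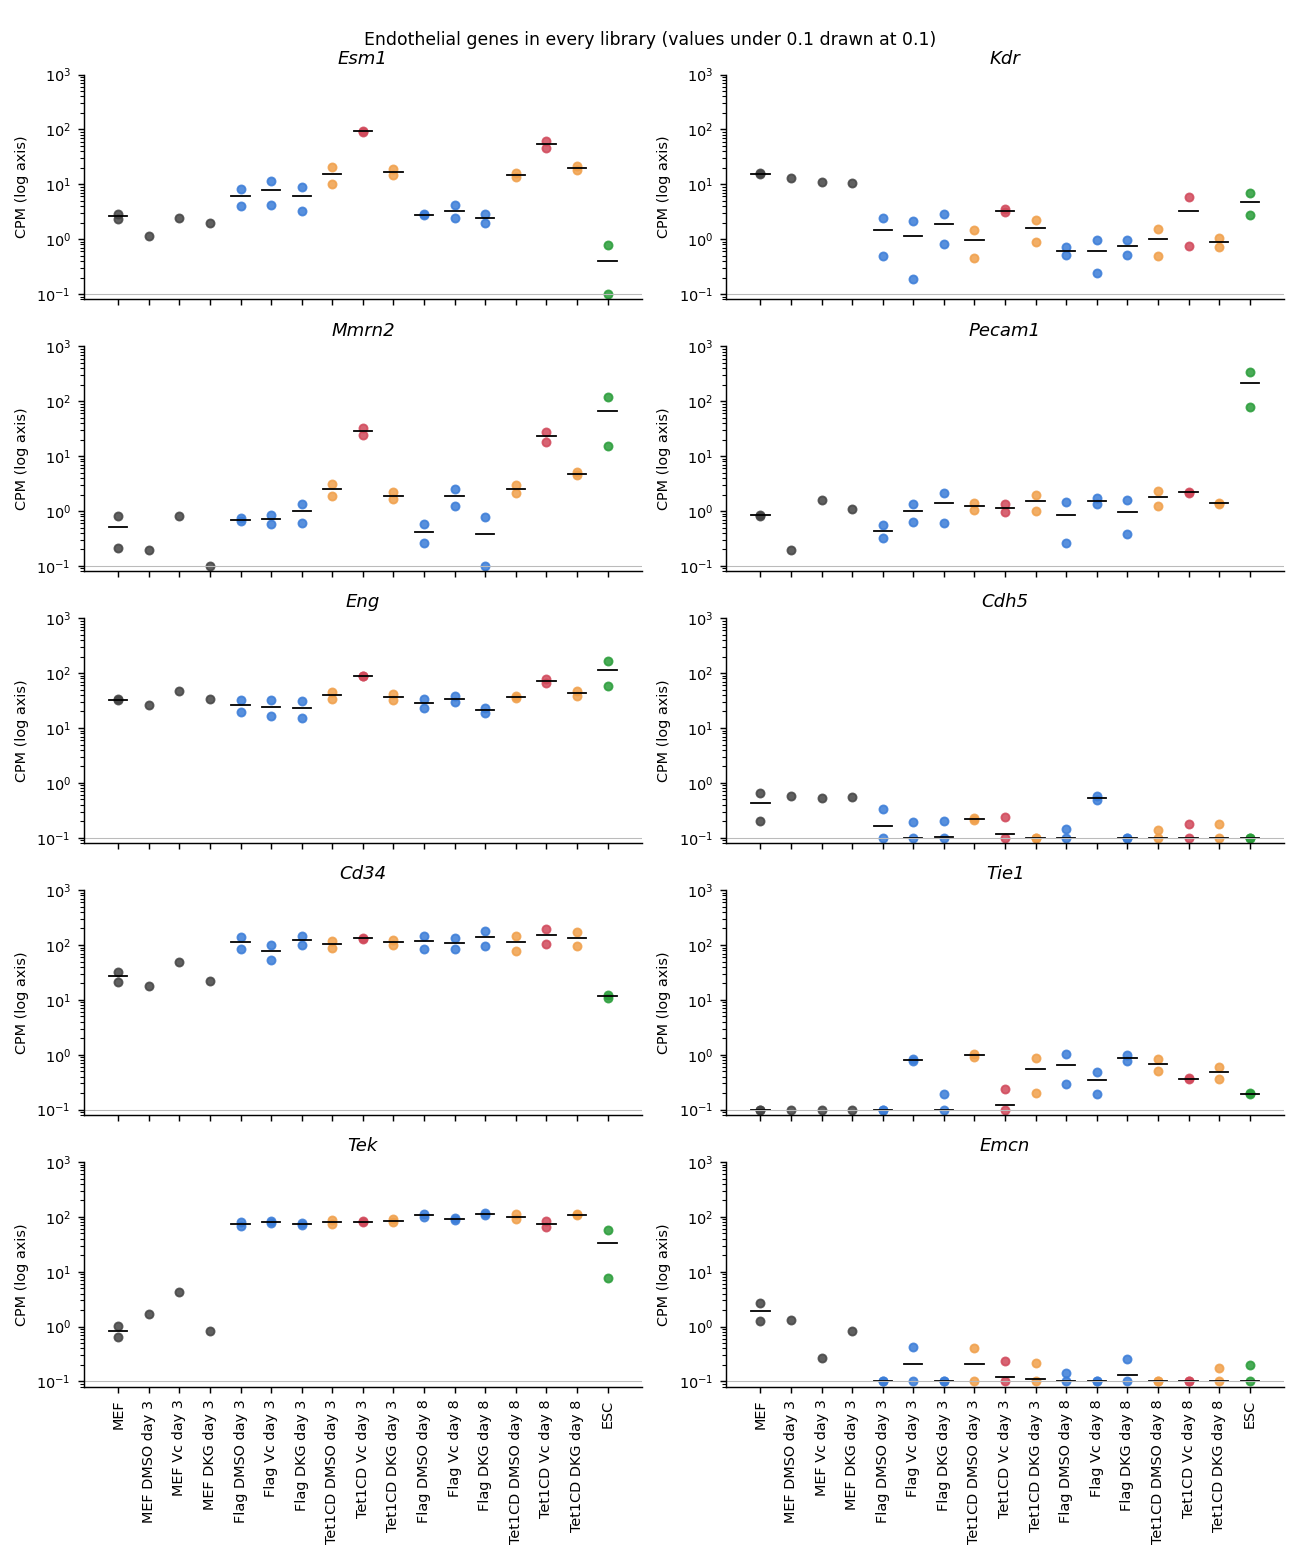
Level of each of the 10 genes (CPM, log axis; values under 0.1 drawn at 0.1) in every library, with groups along the x axis, points for libraries and bars for means of 2. Esm1, Mmrn2 and Eng peak among reprogramming cells in the Tet1CD Vc groups, Tek is high in all 24 reprogramming libraries (64.7 to 116 CPM), Pecam1 is high in ESC (78.3 and 344 CPM), and Cdh5, Tie1 and Emcn stay near 0.

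Esm1 (ENSMUSG00000042379; chromosome 13, 113209659 to 113218098 in mm10) ran from 1.94 to 92.2 CPM among the 24 reprogramming libraries. In Tet1CD cells with Vc it stood at 92.2 and 91.2 CPM at day 3 (libraries 0824 and 0826 in this order throughout) and at 45.6 and 61.1 CPM at day 8. In Flag cells with Vc it stood at 4.2 and 11.7 CPM at day 3 and at 4.11 and 2.45 CPM at day 8. Every Tet1CD Vc library lay above every other library of the series, the next highest being 21.2 CPM. Described by fold, Tet1CD over Flag with Vc was 11.5-fold at day 3 (log2 3.53 ± 0.55 SE) and 16-fold at day 8 (4.0 ± 0.59). Within Tet1CD cells, Vc stood 5.95-fold above DMSO at day 3 and 3.62-fold at day 8.

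Without Vc, Esm1 could be tested, and it stood higher with Tet1CD than with Flag in both media and on both days. With DMSO it was at 3.94 and 8.29 CPM in Flag cells and at 10.3 and 20.4 CPM in Tet1CD cells of day 3. At day 8 with DMSO the values were 2.75 and 2.83 CPM with Flag and 13.4 and 16.1 CPM with Tet1CD. With DKG they were 3.26 and 8.75 against 14.5 and 18.6 CPM at day 3. At day 8 with DKG they were 1.94 and 2.85 against 21.2 and 18.1 CPM. In none of the 4 comparisons did the Flag and Tet1CD libraries overlap. How many of all genes separate in this way was not counted, for Esm1 or for the genes below. Such statements describe the values, and nothing further is read from them.

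The fold of Esm1 with Tet1CD was 2.52 (log2 1.33 ± 0.54, adjusted p = 1) with DMSO and 2.74 (1.45 ± 0.54, adjusted p = 1) with DKG at day 3. At day 8 it was 5.25 (2.39 ± 0.58) with DMSO and 8.24 (3.04 ± 0.60) with DKG. Neither passed edgeR's quasi-likelihood test without a block after Benjamini-Hochberg adjustment over 14914 genes (adjusted p = 0.285 and 0.0891). Both passed with DESeq2 on the same counts (adjusted p = 0.00947 and 0.000263), and the DKG result also by edgeR without the low-count filter (0.0102) and by limma on log2(TPM + 1) (0.0318). Both also passed by edgeR with a block for the library number (adjusted p = 0.0209 and 0.00351). With such a block within each day they passed as well (0.0188 and 0.00474). The labels do not explain these numbers. With RLE scaling by edgeR neither day 8 result passed. The DMSO result passed neither without the low-count filter nor by limma. A larger fold at day 8 than at day 3 was not shown: the ratio of the Tet1CD effects of the 2 days was 2.08-fold with DMSO and 3.01-fold with DKG, each with adjusted p = 1 by edgeR.

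By group mean, Esm1 levels were ordered as Tet1CD Vc day 3 (91.7 ± 0.697 CPM, SD, n = 2), Tet1CD Vc day 8 (53.4 ± 11), and then the 4 Tet1CD groups without Vc, from 14.8 ± 1.88 to 19.7 ± 2.2 CPM. The neighbours within those 4 lay within their spread. Below came the Flag groups of day 3 (6 ± 3.89 to 7.97 ± 5.33 CPM) and of day 8 (2.4 ± 0.643 to 3.28 ± 1.17 CPM). Flag cells of day 8 lay near untreated MEF, at 2.36 and 2.84 CPM, and the 3 MEF libraries kept in medium, at 1.14 to 2.39 CPM. ESC came last, with 4 counts in 0822 and 0 in 0819. Gzmk overlaps Esm1 on the opposite strand, and the kit's name does not mark strand. Gzmk itself had 0 counts in all 12 Flag libraries and at most 1.19 CPM in the Tet1CD libraries.

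**Figure D2:**
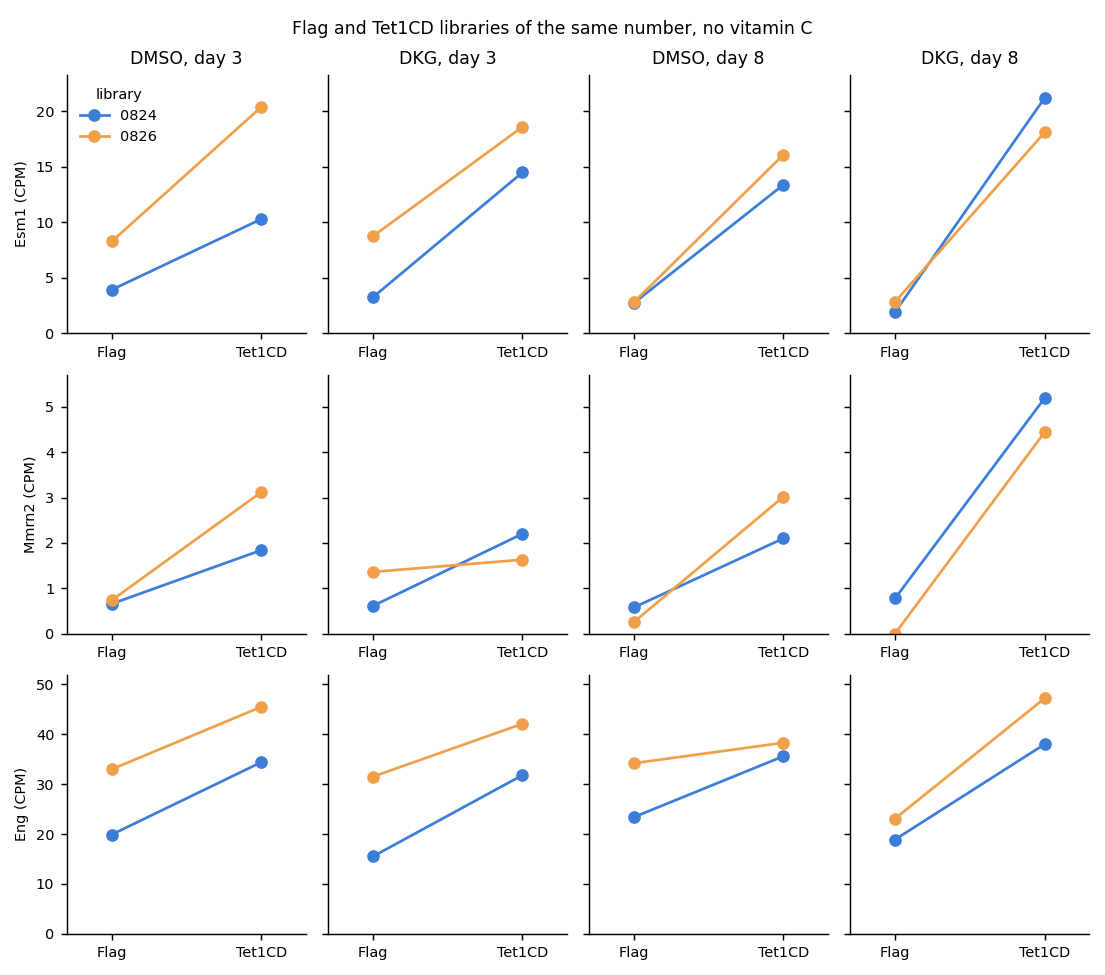
Level of Esm1, Mmrn2 and Eng (CPM, y axis from 0) in Flag and Tet1CD libraries without Vc (x axis), by medium and day; lines join libraries that carry the same number, which the labels do not explain. Esm1 is higher with Tet1CD in all 8 lines, for example 21.2 against 1.94 CPM and 18.1 against 2.85 CPM with DKG at day 8.

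Mmrn2 (ENSMUSG00000041445; chromosome 14, 34375465 to 34404287), a matrix glycoprotein of vessels, followed Esm1 among reprogramming cells at a lower level. In Tet1CD Vc cells it stood at 32 and 24.5 CPM at day 3 and at 17.9 and 28.1 CPM at day 8. The Flag Vc libraries stood at 0.573 and 0.839 CPM at day 3 and at 2.55 and 1.23 CPM at day 8, so the groups did not overlap. As a description, Tet1CD over Flag with Vc was 39-fold at day 3 (log2 5.28 ± 0.87) and 11.8-fold at day 8 (3.56 ± 0.77). These folds rest on few Flag counts, 3 and 4 at day 3 and 13 and 5 at day 8.

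In the tested media Mmrn2 was scarce. With DMSO it was at 0.657 and 0.737 CPM with Flag and at 1.84 and 3.12 CPM with Tet1CD at day 3. At day 8 with DMSO the values were 0.578 and 0.257 against 2.1 and 3.02 CPM. With DKG they were 0.61 and 1.36 against 2.2 and 1.63 CPM at day 3, and 0.777 and 0 against 5.19 and 4.44 CPM at day 8. All 8 Tet1CD libraries without Vc (8 to 34 counts) lay above all 8 Flag libraries without Vc (0 to 7 counts). The fold was 3.49, 5.31, 1.9 and 10.6 in this order, with adjusted p = 1, 1, 1 and 0.665 by edgeR without a block, so none passed. With a block for the library number the last of them passed (adjusted p = 0.0375, edgeR), and with a block within each day it did not (0.382).

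Eng (ENSMUSG00000026814; chromosome 2, 32646595 to 32682669) was well expressed in every library and moved less. In Tet1CD Vc cells it stood at 87 and 90 CPM at day 3 and at 65.4 and 76.9 CPM at day 8. The other 20 reprogramming libraries lay between 15.5 and 47.2 CPM, all below those 4, and the 5 MEF libraries between 26.5 and 47.5 CPM. The described fold of Tet1CD over Flag with Vc was 3.61 at day 3 (log2 1.85 ± 0.43) and 2.08 at day 8 (1.06 ± 0.42). Without Vc it was 1.52 and 1.57 at day 3 with DMSO and DKG, and 1.29 and 2.03 at day 8. Tested by edgeR without a block, none of these 4 passed (adjusted p = 1 each). With a block for the library number none passed either, the lowest being DKG at day 8 (adjusted p = 0.0664, edgeR). With a block within each day that comparison had an adjusted p of 0.426. By value, each Tet1CD library exceeded the Flag library of the same number. The share of all genes that did so was not counted. Tet1CD Vc 0824 of day 8, the library rich in macrophage markers, was lower than its partner 0826 in Eng, Esm1 and Mmrn2 alike. At day 3 Tet1CD Vc 0824 held more of these markers than 0826 (76.3 against 35.9 CPM). There it was higher in Esm1 and Mmrn2 and lower in Eng. The part of the markers in these values was not tested. Fpgs overlaps Eng on the opposite strand and shares 0.288% of its 50-base stretches. Fpgs lay between 45.4 and 79.9 CPM in Flag libraries and between 42.5 and 68.5 CPM in Tet1CD libraries.

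Across the comparisons of Tet1CD with Flag, members past the threshold by edgeR without a block were counted against all genes tested. With DMSO 0 of the 7 tested members passed at day 3 and 0 at day 8, where 0.00671% and 0.0469% of all genes did. At an unadjusted p under 0.05 there were 1 member at day 3 (Esm1) and 2 at day 8 (Esm1 and Mmrn2), beside 1.25% and 4.2% of all genes, and DESeq2 called 0 and 1. With DKG 0 passed at day 3 and 0 at day 8, against 0.00671% and 0.0335% of all genes. Unadjusted there were 1 (Esm1) and 3 (Esm1, Mmrn2 and Eng), beside 1.13% and 2.82% of all genes, and DESeq2 called 0 and 1. All shares given here are those of edgeR and are no measure for the DESeq2 counts. With Vc, where the list itself was chosen, 2 members lay past the threshold at day 3 and 1 at day 8, beside 0.483% and 0.235% of all genes, and nothing is read from these counts. The median log2 fold change over the 7 tested members was 0.60, 0.75, 0.20 and 0.60 in the 4 tested comparisons, in the order DMSO day 3, DMSO day 8, DKG day 3 and DKG day 8. Over all genes it was 0.00, -0.03, 0.00 and -0.01.

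**Figure D3:**
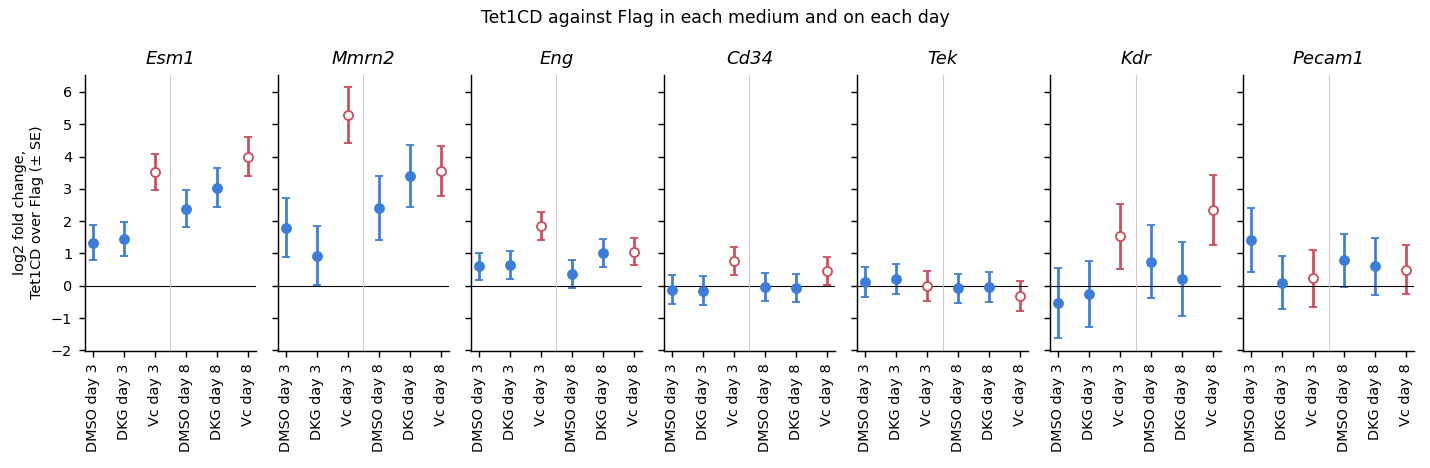
Log2 fold change of Tet1CD over Flag (y axis, ± SE) for the 7 genes that passed the filter, by medium and day (x axis). Filled blue points are tested comparisons and open red points, with Vc, are descriptions; Esm1 lies between 1.33 and 4.0 in all 6, while Tek lies between -0.32 and 0.20.

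Vitamin C and DKG were also compared with DMSO where Tet1CD and Vc did not coincide. In Flag cells, Vc left Esm1 at 1.3-fold of DMSO at day 3 and 1.19-fold at day 8, and Eng at 0.93-fold and 1.19-fold. Mmrn2 stood at 1.01-fold at day 3 and at 4.08-fold at day 8 (log2 2.03 ± 1.02, adjusted p = 1, edgeR). No member passed on either day, and 0% of all genes did (0 members at an unadjusted p under 0.05 and 0 by DESeq2 on both days). DKG against DMSO, averaged over virus and day, gave folds from 0.913 for Eng to 1.31 for Pecam1, with 0 members and 0% of all genes called (0 members unadjusted, 0 by DESeq2).

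The Tet1CD-by-Vc interaction, the ratio of the Tet1CD fold with Vc to that with DMSO, is a description. For Esm1 it was 4.57 at day 3 (log2 2.19 ± 0.75) and 3.04 at day 8 (1.60 ± 0.81). For Mmrn2 it was 11.2 and 2.23, with SE of 1.34 and 1.39 on the log2 scale, and for Eng 2.38 and 1.62. Tek stood at 0.929 and 0.845. No member lay past the threshold on either day, beside 0.101% and 0.0201% of all genes. Within Tet1CD cells, Vc over DMSO placed 1 member past it at day 3 and 0 at day 8, beside 0.261% and 0.174% of all genes, again with nothing read from the counts.

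Tek (ENSMUSG00000006386; chromosome 4, 94739289 to 94874976), the angiopoietin receptor, marked the step from fibroblasts to reprogramming cells. It had 3 and 5 counts in untreated MEF, or 0.643 and 1.01 CPM, and 80.1 and 69.1 CPM in Flag cells with DMSO at day 3. Tek rose 87-fold in this comparison (log2 6.44 ± 0.70, edgeR adjusted p = 9.1e-06). MEF kept with DMSO, Vc and DKG for 3 days held 1.71, 4.25 and 0.825 CPM, values of single libraries with no test. The 24 reprogramming libraries lay between 64.7 and 116 CPM and none overlapped with MEF.

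By virus Tek differed little. Tet1CD stood at 1.08, 0.945, 1.15 and 0.972 of Flag in the tested comparisons and at 1 and 0.799 with Vc. From day 3 to day 8, Tek in Flag DMSO cells went from 80.1 and 69.1 to 115 and 98.5 CPM, 1.43-fold (adjusted p = 0.763, edgeR). In Flag DKG cells it went from 78.3 and 71 to 116 and 107 CPM. In every combination of virus and medium except Tet1CD with Vc, both libraries of day 8 lay above both of day 3. The share of all genes that did so was not counted. Of these combinations Flag DMSO, Flag Vc and Tet1CD DMSO were tested by day. By edgeR without a block Tek passed in none of them, where 1.09%, 1.26% and 0.0536% of all genes did. With a block for the library number Tek passed in Flag DMSO cells (adjusted p = 0.0326, edgeR), beside 6.32% of all genes. With a block within each day it did not (0.762). Tek was in ESC as well, at 7.54 CPM in 0822 and 58.3 CPM in 0819. The genes whose log2 CPM ran most like that of Tek over the 28 replicated libraries were Ceacam1 (r = 0.974), She (0.965) and Add3 (0.963), libraries that share their groups and the split from MEF.

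Cd34 (ENSMUSG00000016494; chromosome 1, 194938819 to 194961279) rose in the same step, though less. It stood at 21.4 and 32.1 CPM in untreated MEF and at 83.9 and 140 CPM in Flag cells with DMSO at day 3, 4.18-fold (log2 2.06 ± 0.46, edgeR adjusted p = 0.00327). Without the MEF library 0824 the adjusted p was 0.0518. All 24 reprogramming libraries, 54.1 to 197 CPM, lay above all 5 MEF libraries, 17.9 to 49.1 CPM, of which the highest was the one kept with Vc. ESC were lowest, at 12.1 and 11 CPM. Tet1CD over Flag was 0.902 to 0.978 without Vc, and as a description 1.7-fold with Vc at day 3. Its expected counts were not whole in any of the 31 libraries and 2.14% of its 50-base stretches occur in other genes, so its counts are partly a model's estimate.

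Kdr (ENSMUSG00000062960; chromosome 5, 75932827 to 75978458), the main VEGF receptor, went the other way. It stood at 15.2 and 16.2 CPM in untreated MEF, at 10.5 to 12.8 CPM in MEF kept in medium, and at 0.493 and 2.39 CPM in Flag cells with DMSO at day 3. It fell to 0.0919 of the MEF level (log2 -3.44 ± 0.98, edgeR adjusted p = 0.0137), a call that was lost without the Flag library 0824 (log2 -2.72, adjusted p = 0.151). Without the Flag library 0826 it stood at -4.94. All 24 reprogramming libraries lay below all 5 MEF libraries. The highest of them was Tet1CD Vc 0824 of day 8 at 5.86 CPM, the library with 1253 CPM of macrophage markers, while its partner 0826 held 0.743 CPM of Kdr and 16.9 CPM of those markers. At day 3 the Tet1CD Vc libraries held 3.49 and 3.09 CPM of Kdr, against 0.191 and 2.1 CPM in Flag Vc. Macrophage markers also stood at 2797 and 598 CPM in untreated MEF, and their part in the Kdr values was not tested.

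Of the 7 tested members, Tek and Cd34 rose and Kdr fell between untreated MEF and Flag DMSO cells of day 3. Of all genes, 14.8% rose and 13.9% fell there (28.7% in all). Without a block, Esm1 (2.32-fold, adjusted p = 0.139, edgeR), Mmrn2, Eng and Pecam1 did not pass. These groups differ by OKSM, the virus, DMSO, time in culture and passage together. The passage was labelled 2 in MEF and 0 in Flag cells. OKSM, the virus and the passage cannot be told apart here. The single MEF library kept for 3 days with DMSO held 1.71 CPM of Tek, 17.9 CPM of Cd34 and 12.8 CPM of Kdr. The part of DMSO and time in culture was not tested.

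The comparison of ESC with MEF set the other end of the scale. Pecam1 (ENSMUSG00000020717; chromosome 11, 106654217 to 106750628) stood at 0.858 and 0.812 CPM in untreated MEF and at 78.3 (0822) and 344 CPM (0819) in ESC. It rose 247-fold (log2 7.95 ± 0.78, edgeR adjusted p = 6.49e-07). None of the 24 reprogramming libraries approached this level, their range being 0.257 to 2.27 CPM, the Tet1CD Vc libraries included at 0.95 to 2.23 CPM. Pecam1 counts were not whole in 27 libraries and 1.54% of its 50-base stretches occur elsewhere.

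Mmrn2 stood at 0.214 and 0.812 CPM in MEF and at 15.1 (0822) and 120 CPM (0819) in ESC, a 124-fold rise (log2 6.96 ± 0.92, edgeR adjusted p = 1.42e-05). The Tet1CD Vc libraries, 17.9 to 32 CPM, thus lay between the 2 ESC values. Eng rose from 32.2 and 33.3 CPM in MEF to 57.3 (0822) and 169 CPM (0819), 3.47-fold (log2 1.79 ± 0.43, edgeR adjusted p = 0.00227). Tek rose 38.5-fold, with log2 5.27 ± 0.70 (edgeR adjusted p = 1.51e-05). Esm1 (0.159 of MEF, edgeR adjusted p = 0.016) and Cd34 (0.433 of MEF, edgeR adjusted p = 0.0446) fell. Kdr, at 6.94 (0822) and 2.71 CPM (0819), stood at 0.308 of MEF (log2 -1.70 ± 0.88) and did not pass (edgeR adjusted p = 0.114). So 4 of the 7 tested members rose and 2 fell, where 26.8% of all genes rose and 25.7% fell (52.4% in all).

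All 4 rising genes were higher in 0819 than in 0822, the library with more fibroblast markers. Without 0819, Pecam1, Mmrn2 and Tek kept their calls, at log2 6.50, 4.79 and 3.13. Eng then stood at log2 0.80 (edgeR adjusted p = 0.121), and Cd34 and Esm1 were not called either (adjusted p = 0.167 and 0.15). Without 0822 the 4 rises were larger, from 2.37 for Eng to 8.65 for Pecam1. Esm1 stood at -6.74 and was called, and Cd34 was not (adjusted p = 0.104). Without the MEF library 0826 neither Cd34 (adjusted p = 0.228, edgeR) nor Esm1 (0.0599) was called, and Mmrn2 stood at 8.16. Without the MEF library 0824 Mmrn2 stood at 6.35. The part of the fibroblast markers in these values was not tested.

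**Figure D4:**
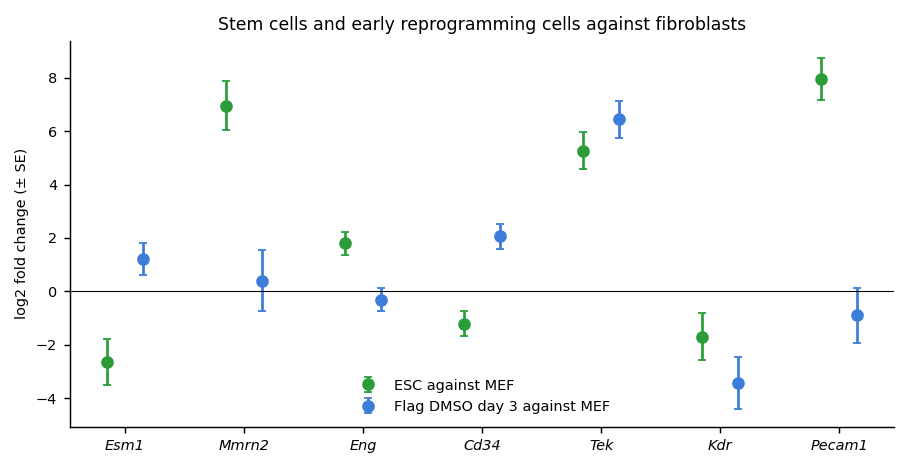
Log2 fold change against untreated MEF (y axis, ± SE) of the 7 genes that passed the filter (x axis), for ESC in green and for Flag DMSO cells of day 3 in blue. Tek is high in both, at 5.27 and 6.44; Pecam1 (7.95) and Mmrn2 (6.96) are high in ESC only on this plot, and Kdr is lowest in Flag cells (-3.44).

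Between day 3 and day 8, Flag DMSO, Flag Vc and Tet1CD DMSO cells were tested by edgeR without a block. In them 1.09%, 1.26% and 0.0536% of all genes passed and no member did. DESeq2 called 0 in each, and at an unadjusted p under 0.05 there were 0, 1 and 0 members. The 1 was Esm1 in Flag Vc cells, at 4.2 and 11.7 CPM at day 3 and 4.11 and 2.45 CPM at day 8 (0.421-fold, adjusted p = 0.331, edgeR). In Flag DMSO cells Esm1 was at 0.46-fold (adjusted p = 0.507, edgeR) and in Tet1CD DMSO cells at 0.958-fold (adjusted p = 1, edgeR). In Tet1CD Vc cells the described day 8 level was 0.582 of that of day 3 for Esm1, 0.814 for Mmrn2 and 0.804 for Eng, with 0 members past the threshold beside 0.161% of all genes.

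Compared per length in TPM, the order of the genes changed with the cells. In Flag Vc cells of day 3 it was Cd34 (63.1 ± 28.1 TPM, SD, n = 2), Tek (36.2 ± 2.19), Eng (16.2 ± 8.94), Esm1 (7.82 ± 5.26) and then Pecam1, Tie1, Kdr, Mmrn2, Emcn and Cdh5, each under 1 TPM, Kdr at 0.385 ± 0.46 and Mmrn2 at 0.36 ± 0.099. In Tet1CD Vc cells of that day Esm1 (89.4 ± 0.0778 TPM) came next to Cd34 (107 ± 5.29), followed by Eng (60.7 ± 2.16), Tek (36 ± 1.07), Mmrn2 (14.4 ± 2.64), Kdr (1.11 ± 0.0849) and Pecam1 (1.08 ± 0.0212), while Emcn, Cdh5 and Tie1 were under 1 TPM. Esm1 and Eng thus stood above Tek with Tet1CD and Vc and below it with Flag and Vc. In untreated MEF, Eng (20 ± 2.41 TPM) and Cd34 (19.2 ± 5.17) led and lay within each other's spread, ahead of Kdr (4.86 ± 0.212).

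Likeness of pattern over the 28 replicated libraries was also read for the others, as a description of libraries that share groups. Eng and Mmrn2 were each among the 3 genes most like the other (Pearson r = 0.889). Esm1 was nearest to Rarres1 (r = 0.910), Syne3 (0.900) and Gm14137 (0.886), Eng also to Gdf15 (0.909) and Rnf213 (0.865), and Mmrn2 also to Baiap2l1 (0.917) and Zfp809 (0.891). Cd34 was nearest to Scara5 (0.956), Akr1c14 (0.942) and Fndc3c1 (0.933). Kdr was nearest to Sh3bgrl3 (0.894), Lyn (0.893) and Npc1 (0.890), and Pecam1 to Hydin (0.953), Gm37701 (0.947) and Naa11 (0.944).

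The other genes of the endothelial programme were taken from a list of 77 ligands, receptors, transcription factors and junction, surface or secreted genes that leaves out the 10. Of these, 58 passed the low-count filter. In the 4 tested comparisons of Tet1CD with Flag, 0 of the 58 passed by edgeR. At an unadjusted p under 0.05 there was 1 of the 58 with DMSO at day 8, beside 4.2% of all genes, and 0 in the other 3. With Vc, as a description, their median log2 fold change was 0.45 at day 3 and 0.05 at day 8, against 0.00 and -0.01 over all genes. The 11 macrophage markers had medians of 2.54 and 7.18 in the same comparisons. At day 8 the Tet1CD Vc libraries were unlike in these markers, with sums of 1253 CPM in 0824 and 16.9 CPM in 0826, against 10.8 and 11 CPM with Flag and Vc. Stab1, a scavenger receptor of the wider list that macrophages also make, stood at 5.43 and 3.09 CPM in the Tet1CD Vc libraries of day 3 and at 82.8 and 0.743 CPM in those of day 8.

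Between untreated MEF and Flag DMSO cells of day 3, 4 of the 58 rose and 19 fell, where 14.8% of all genes rose and 13.9% fell, with a median of -1.10 against 0.04 over all genes. Of the 58, 52 would have passed the low-count filter from the other groups alone, and of these 4 rose and 16 fell, against 15% and 13.1% of all genes so admitted. Without the Flag library 0824 the counts were 3 and 9, and without the MEF library 0824 they were 3 and 11. By class, 3 receptors rose and 8 fell, 0 ligands rose and 4 fell, 1 transcription factor rose and 3 fell, and 0 junction, surface or secreted genes rose and 4 fell. Selp, Stab1 and Cd93, the largest changes, fell, with log2 fold changes of -7.88, -7.86 and -6.58 (edgeR adjusted p = 0.00488, 0.00084 and 0.00121). Selp and Cd93 entered the test only through their MEF levels, so a fall was the only call open to them and their p-values are no support. Stab1 went from 366 and 87.7 CPM to 0.985 and 0.921 CPM. Macrophage markers stood at 2797 and 598 CPM in the same MEF libraries, against 14 and 10.9 CPM in these Flag libraries, and their part was not tested.

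In ESC against MEF 8 of the 58 rose and 33 fell (median -2.03 against 0.00), where 26.8% of all genes rose and 25.7% fell. Without ESC 0819, 4 rose and 18 fell. Of the 50 that would have passed the filter from the other groups alone, 6 rose and 30 fell, against 25.2% and 26.3% of all genes so admitted. Gja4 and Cldn5, genes of gap and tight junctions, rose by 6.13 ± 1.32 and 4.85 ± 1.63 on the log2 scale (edgeR adjusted p = 0.00107 and 0.0212), from 1 count and 0 counts in each MEF library. Gja4 had 11 counts in ESC 0822 and 156 in 0819, and Cldn5 only 2 and 5. Gja4 entered the test only through its ESC levels. Its rise was thus the only call open to it, and its p-value is no support. Stab1 fell by 4.89 on the log2 scale (edgeR adjusted p = 0.00274). From day 3 to day 8 in Flag Vc cells, 2 of the 58 rose and 0 fell, beside 1.26% of all genes called in either direction. Of the 57 that would have passed the filter from the other groups alone, 1 rose and 0 fell. Of all genes so admitted, 0.755% rose and 0.492% fell. The 2 were Esam, an adhesion molecule of endothelial junctions, and Klf2, a flow-responsive factor also present in ESC. Esam stood at 1 and 0 counts at day 3 and 12 and 9 at day 8 (log2 4.22 ± 0.90, edgeR adjusted p = 0.0245). It entered the test only through its day 8 level. A rise was thus the only call open to it, and its p-value is no support. For Klf2 the log2 fold change was 2.76 ± 0.56 (edgeR adjusted p = 0.0203). Klf2 went from 1.34 and 2.1 CPM to 15.9 and 7.36 CPM, against 236 and 197 CPM in ESC. Untreated MEF held 48.9 and 33.1 CPM of Klf2 and MEF kept in medium 33.7 to 84.1 CPM, so the day 8 values also lay below those of MEF.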

How the data were processed

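RNA-seq gene tables of 31 libraries were used. Per the labels' protocols, Trizol RNA, 1 ug per library, went into a TruSeq kit, whose name does not mark strand. Per the submitters' processing notes, the authors used Bowtie and RSEM with mm10. Versions, strand setting and annotation: not given in the sources used here. For each gene the deposited tables hold TPM, FPKM and an expected count, per the file headers made with RSEM, which shares reads that match several genes. Of these, FPKM served no result. Of 29267 gene identifiers, 28756 matched GENCODE M21.

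Expected counts were rounded and the 28 libraries of the 14 groups of 2 entered 1 edgeR quasi-likelihood fit (edgeR 4.0.16, R 4.3.3; filterByExpr, TMM, 1 mean per group, no block), two-sided, with Benjamini-Hochberg adjustment over 14914 genes in each comparison and a threshold of 0.05. CPM are counts over TMM-scaled library totals. There were 12 tested comparisons, 5 tested differences of effects, none of which called a member, and 7 described ones with no p. Each SE was derived from the log2 fold change and the F statistic. Alternatives were DESeq2 1.42.0, limma 3.58.1 on log2(TPM + 1), RLE scaling, no filter, blocks for the library numbers and leaving out each library. Counts of genes that pass the filter from the groups not compared were added after seeing the data. The scripts were tested on simulated data.

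The 10 genes, the wider list, the marker lists and the tests were chosen with earlier results of these data known. Named genes were all 10 members, up to 3 called genes of the wider list with the largest change per comparison, and the 3 genes most like each tested member.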

Additional observations from a re-analysis of the deposited data

How the results depend on the processing

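No result reversed under any alternative tried. Among counts of genes called, 72 stayed within 1.5 times of the main count and 10 moved under other settings, and 64 and 4 when 1 library was left out. For the log2 fold changes of members, 110 kept their side of the threshold, 9 newly passed and 1 no longer passed (Cd34, ESC against MEF with RLE scaling, adjusted p = 0.0506); with 1 library left out, 76 kept it and 8 no longer passed.

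With the replicate block, which uses the library number, 1 member passed for Tet1CD against Flag with DMSO at day 8 (Esm1, log2 2.37 ± 0.42, adjusted p = 0.0209, beside 0.409% of all genes). For DKG at day 8 the replicate block gave 2, Esm1 (3.07, adjusted p = 0.00351) and Mmrn2 (3.39, adjusted p = 0.0375), beside 0.329% of all genes. It gave 1 for day 8 against day 3 in Flag DMSO cells (Tek, 0.51, adjusted p = 0.0326), beside 6.32% of all genes. For Flag DMSO day 3 against MEF it gave 37 of the wider list, where the test without a block gave 23. Of all genes, 44.2% were called there with this block and 28.7% without a block. In that comparison the replicate block also called Esm1 (adjusted p = 0.0471), so 4 members in all. A block within each day gave 1 member for DMSO at day 8 (Esm1, 2.38, adjusted p = 0.0188) and 1 for DKG at day 8 (Esm1, 3.05, adjusted p = 0.00474). The within-day block called neither Esm1 for Flag DMSO day 3 against MEF (0.77, adjusted p = 0.216) nor Tek by day in Flag DMSO cells (0.48, adjusted p = 0.762), and it called all 7 members for ESC against MEF, Kdr included (-1.70, adjusted p = 0.0116), beside 64.6% of all genes. Differences between libraries 0824 and 0826 correlated across genes at 0.327 to 0.639 between groups of 1 day, at -0.006 to 0.165 across days and at -0.009 to 0.277 with MEF, so equal numbers are a hint of pairing within a day and not a stated design. DESeq2 gave 1 member for DMSO and 1 for DKG at day 8, and for DKG at day 8 the fit without the low-count filter gave 1 and limma 1, Esm1 in each. The shares of all genes given above belong to other fits, and none is given for DESeq2, limma or the fit without the filter.

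Leaving out 1 library gave 3 to 6 members for ESC against MEF, the 3 without ESC 0819, and 2 to 3 for Flag DMSO day 3 against MEF. For the wider list it gave 22 to 40 and 12 to 17, the lowest without ESC 0819 and without Flag 0824. Depth limits Cdh5, Tie1 and Emcn, which were untested, and Mmrn2 and Kdr in Flag cells, where few counts stood behind each value.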
